A study of Mus musculus with 5 samples.

Results

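Integrins are surface receptors made of 1 α chain and 1 β chain that bind T cells to matrix proteins and to ligands on other cells. The genes described here are 10 integrin chains of tissue T cells, chosen by name from a list of symbols: the α chains Itgae, Itga1, Itga2, Itga4, Itgal and Itgav and the β chains Itgb1, Itgb2, Itgb3 and Itgb7. All 10 were found among the 31053 genes of the count tables. Itgb8 was added as the αV partner best known from regulatory T cells (Tregs).

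Kidney CD4 T cells were sorted by flow cytometry after unilateral ischemia-reperfusion injury (IRI), in which blood flow to 1 kidney is blocked and then restored, and were sequenced as 5 droplet-based single-cell 3' libraries. The knockout group (n = 3 libraries) carries Il1rl1fl/fl together with the Foxp3YFP-Cre allele. There Foxp3-expressing cells make Cre, which acts on floxed Il1rl1, the gene of the IL33 receptor ST2. The control group (n = 2 libraries), titled wild type in the labels, came from Il1rl1fl/fl mice, which carry the same floxed alleles without Cre. All mice were 10 weeks old and all had the injury, so no uninjured kidney is in the comparison. Only the knockout mice carry the Foxp3YFP-Cre allele, so the loss of Il1rl1 and the presence of that allele cannot be told apart, and the labels do not say whether each library is a separate mouse.

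In textbook terms, αE (Itgae, CD103) pairs with β7 and binds E-cadherin on epithelium, and α1 and α2 (Itga1, Itga2) pair with β1 and bind collagens. The α4 chain pairs with β1 to bind VCAM1 and fibronectin or with β7 to bind MAdCAM1, and αL pairs with β2 as LFA1, which binds ICAM1. The αV chain pairs with several β chains, among them β1, β3 and β8, and αVβ8 releases active TGF-β from its latent form. Itgae and Itga1 are used as markers of T cells that stay in tissue, and TGF-β is known to raise Itgae.

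Itga2 (chr13:114833081-114932100) and Itga1 (chr13:114953096-115101964) lie next to each other on the minus strand of chromosome 13 in GRCm38 (GENCODE M21), and both were higher in Cxcr6-positive than in Cxcr6-negative CD4 T cells. Itgb8 (chr12:119158022-119238802, minus strand) had the largest fold among the 11 chains between Foxp3-positive and Cxcr6-positive CD4 T cells. Their promoters, 250 bases before to 50 bases after the start, are shown as examples of chains that differ between T cell gates described next. Itga4, Itgav, Itgb1 and Itgb7 also have a RefSeq entry and also differ between gates, and their promoters are not shown. Itgae, Itgal, Itgb2 and Itgb3 have no entry. Capitals mark the Smad-binding letters GTCTG or, for the other strand, CAGAC, since Smad proteins carry the TGF-β signal.
Itga1 (chr13:115101915-115102214, minus strand): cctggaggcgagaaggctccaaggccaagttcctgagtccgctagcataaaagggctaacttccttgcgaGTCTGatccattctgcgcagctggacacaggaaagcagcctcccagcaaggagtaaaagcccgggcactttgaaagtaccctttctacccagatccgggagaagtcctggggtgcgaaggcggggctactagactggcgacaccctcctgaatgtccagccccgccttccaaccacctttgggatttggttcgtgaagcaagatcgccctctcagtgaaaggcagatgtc
Itga2 (chr13:114932051-114932350, minus strand): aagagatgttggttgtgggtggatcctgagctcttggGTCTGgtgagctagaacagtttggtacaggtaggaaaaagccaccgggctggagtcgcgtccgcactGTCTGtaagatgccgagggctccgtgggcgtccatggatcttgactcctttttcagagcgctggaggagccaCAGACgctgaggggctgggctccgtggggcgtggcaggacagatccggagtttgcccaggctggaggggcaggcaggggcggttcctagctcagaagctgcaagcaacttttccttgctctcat
Itgb8 (chr12:119238227-119238526, minus strand): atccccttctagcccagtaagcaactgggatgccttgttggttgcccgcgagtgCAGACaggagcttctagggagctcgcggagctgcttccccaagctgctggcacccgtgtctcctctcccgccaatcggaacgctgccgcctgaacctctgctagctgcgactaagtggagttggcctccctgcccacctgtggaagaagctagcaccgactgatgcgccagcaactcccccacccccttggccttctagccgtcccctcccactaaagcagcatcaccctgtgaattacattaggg
The sequences are from RefSeq (GRCm38.p6), which gave a promoter for 6 of the 10 chains and for Itgb8. The windows follow the RefSeq starts, and that of Itgb8 lies inside the longer gene span of GENCODE M21 given above. The Itga2 promoter held 3 Smad matches, against 1 each in Itga1 and Itgb8, and 49.6% of 32851 promoters of this length held at least 1. Of the promoters not shown, that of Itgb1 held 3, Itgb7 2, Itga4 1 and Itgav 0. None of the 3 shown held the Runx letters TGTGGT on either strand (16.8% of all promoters), the T-box letters AGGTGTGA (1.28%) or the ETS letters CCGGAAGT (3.89%). A match describes letters in a window of 300 bases and is not evidence that a factor binds there.

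The other chains lie at chr11:73090583-73147446 (Itgae, plus strand), chr2:79255426-79333123 (Itga4, plus), chr7:127296260-127335138 (Itgal, plus), chr2:83724397-83806916 (Itgav, plus), chr8:128685654-128733200 (Itgb1, plus), chr10:77530252-77565708 (Itgb2, plus), chr11:104608000-104670476 (Itgb3, plus) and chr15:102215995-102231944 (Itgb7, minus). Pelo and the model Gm49395 overlap Itga1 on its own strand, so reads could be shared there, and Haspin lies within Itgae on the opposite strand. Haspin was at 17.5, 22.6 and 26.1 CPM (UMIs of a gene among 1000000 UMIs of the gate) in the knockout libraries and 16.8 and 16.4 in the control libraries in Foxp3-positive cells, where it did not follow Itgae.

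Cells were assigned to gates by unique molecular identifiers (UMIs, counted RNA molecules). The Foxp3 gate holds cells with at least 1 Foxp3 UMI, and Foxp3 is the defining Treg factor. Cells without Foxp3 and with at least 1 Cd4 UMI were split by at least 1 or no UMI of Cxcr6, a chemokine receptor of tissue T cells. The CD8 gate holds cells with both Cd8a and Cd8b1. Of 40778 barcodes, 38417 cells were retained and 30190 (78.6%) fell in a gate. The Foxp3 gate held 315, 863 and 383 cells in the knockout libraries and 807 and 627 in the control libraries. The Cxcr6-positive gate held 1909 to 4589 cells (knockout) and 2419 and 4145 (control), the Cxcr6-negative gate 1041 to 2540 (knockout) and 3272 and 3364 (control), and the CD8 gate 63 to 167 (knockout) and 90 and 329 (control). Since the sort was for CD4, the CD8 gate goes against the label; of its 719 cells, 502 (69.8%) also met another gate, and these were left out when gates were compared. Gates that need an extra UMI also select deeper cells: library medians were 5429 to 16664 UMIs a cell in the Foxp3 gate, 5440 to 16696 in the Cxcr6-positive gate, 3743.5 to 11645 in the Cxcr6-negative gate and 7060 to 24330 in the CD8 gate.

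Libraries held 31104939 to 60421178 UMIs in the knockout group and 46383793 and 152275841 in the control group, and control library 1 was the deepest. Pairs of libraries shared 2 to 39 barcodes over 10 pairs. Il1rl1 was at 128, 53.9 and 51.6 CPM in the Foxp3 gate of the knockout libraries and 74.2 and 54.8 in the control libraries; which exons are floxed is not given, so 3' counts do not check the deletion. In the Cxcr6-positive gate Il1rl1 was at 25.1 to 56.8 in the knockout libraries and 7.64 and 9.66 in the control libraries. T cell markers (Cd3e, Cd3d, Cd3g, Trac, Trbc2) were detected in every gate. The summed Treg list (5 genes) was 2063 to 2569 CPM in the Foxp3 gate of the knockout libraries and 2306 and 2922 in the control libraries, against 377 to 417 (knockout) and 301 and 321 (control) in the Cxcr6-positive gate. The list includes Foxp3, which defined the gates and is absent from the Cxcr6-positive gate by rule, so part of this contrast was fixed in advance. Another 8 genes, of macrophages, were also present in the Foxp3 gate, none at 0, with a summed level of 1068 to 1565 in the knockout libraries and 569 and 906 in the control libraries.

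Itgae marked the Foxp3 gate. Its level was 59.0, 40.4 and 33.8 CPM in the knockout libraries and 70.7 and 73.7 in the control libraries in the Foxp3 gate. In the Cxcr6-positive gate Itgae was at 4.88 to 6.30 CPM over the 5 libraries, and in the Cxcr6-negative gate at 2.69 to 9.31. Every Foxp3-gate value thus lay above every value of both Foxp3-negative CD4 gates. In a fit of gate sums with library as a block (edgeR quasi-likelihood test, adjusted over 12030 genes), Itgae was 11.3-fold higher in the Foxp3 than in the Cxcr6-positive gate (log2 3.50 ± 0.24 SE, adjusted p = 4.49e-09) and 9.47-fold higher than in the Cxcr6-negative gate (log2 3.24 ± 0.26, adjusted p = 3.24e-08). The direction held in 5 of 5 libraries and the call in 13 of 13 alternatives for each contrast. Between the Cxcr6-positive and Cxcr6-negative gates Itgae had a log2 difference of -0.25 (95% interval -0.84 to 0.33, edgeR adjusted p = 0.514), higher in 2 of 5 libraries.

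Itgae in the CD8 gate rested on few molecules outside 1 library. In cells of the CD8 gate and no other gate it was at 16.6, 28.9 and 21.6 CPM in the knockout libraries, from 4, 9 and 2 UMIs, and 91.0 and 38.9 CPM in the control libraries, from 137 and 7 UMIs. All 5 values exceeded those of both Foxp3-negative CD4 gates. Against the Cxcr6-positive gate the fitted difference was log2 3.60 ± 0.41 (edgeR adjusted p = 8.2e-06), and without control replicate 1 it was 2.36 with an adjusted p of 0.108. Against the Cxcr6-negative gate it was 3.35 ± 0.42 (edgeR adjusted p = 1.12e-05), and 2.09 without control replicate 1 (adjusted p = 0.102). Against the Foxp3 gate the log2 difference was 0.10, with an interval of -0.63 to 0.84 that leaves a difference in either direction possible, and the CD8 gate was higher in 1 of 5 libraries.

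Itga1, the collagen-binding α1 chain, marked the Cxcr6-positive and CD8 gates. Its level in the Cxcr6-positive gate was 148, 67.8 and 83.3 CPM in the knockout libraries and 109.6 and 96.7 in the control libraries. The Foxp3 gate had 63.0, 38.4 and 39.6 CPM in the knockout libraries and 35.7 and 45.0 in the control libraries, and the Cxcr6-negative gate had 15.4 to 27.2 over the 5. No value of the Cxcr6-positive gate overlapped with either of the others. Itga1 was 4.19-fold higher in the Cxcr6-positive than in the Cxcr6-negative gate (log2 2.07 ± 0.13, edgeR adjusted p = 5.23e-10). The Foxp3 gate was lower than the Cxcr6-positive gate by log2 -1.33 ± 0.13 (edgeR adjusted p = 2.33e-07), lower in 5 of 5 libraries. In CD8-only cells Itga1 was at 203, 119 and 140.3 CPM in the knockout libraries and 118 and 144 in the control libraries, 6.03-fold above the Cxcr6-negative gate (log2 2.59 ± 0.22, edgeR adjusted p = 1.04e-07) and 3.62-fold above the Foxp3 gate (1.86 ± 0.22, adjusted p = 4.61e-06). The CD8 gate against the Cxcr6-positive gate did not pass (log2 0.53 ± 0.20, edgeR adjusted p = 0.122), although it was higher in 5 of 5 libraries.

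The Foxp3 gate was also higher than the Cxcr6-negative gate in Itga1 (log2 0.73 ± 0.14, edgeR adjusted p = 0.000675), but this direction did not hold with thinned cells. With every cell thinned to 2000 UMIs and gated again, the difference was -0.50 (adjusted p = 0.0458), the opposite direction. Gating again also changed which cells a gate held: the Cxcr6-positive gate of control library 1 went from 4145 to 1083 cells. Depth and gate membership cannot be told apart here. The order of these 2 gates for Itga1 is therefore not settled.

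Itga2, the collagen-binding α2 chain, was lower in the Cxcr6-negative gate than in the other CD4 gates. It was at 56.1, 36.8 and 64.6 CPM in the knockout libraries and 68.8 and 52.5 in the control libraries in the Cxcr6-positive gate. In the Cxcr6-negative gate the values were 36.1, 35.8 and 46.5 CPM in the knockout libraries and 28.6 and 28.0 in the control libraries. The ranges overlapped, through knockout libraries only, and the Cxcr6-positive gate was higher in 5 of 5 libraries (log2 0.63 ± 0.12, edgeR adjusted p = 0.000456). In knockout replicate 2 the log2 difference was only 0.04. The Foxp3 gate, at 47.3 to 64.2 CPM, exceeded the Cxcr6-negative gate by 0.70 ± 0.13 (edgeR adjusted p = 0.000541), and by 0.39 with thinned cells, which did not pass (adjusted p = 0.097). Foxp3 and Cxcr6-positive gates had a log2 difference of 0.06 (interval -0.20 to 0.32). The CD8 call against the Cxcr6-negative gate (0.81 ± 0.26, edgeR adjusted p = 0.0379) was not seen without control replicate 1 (0.05), and the CD8 gate was higher in 2 of 5 libraries.

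Itga4, the α chain of the VCAM1 and MAdCAM1 receptors, was lower in the Foxp3 than in the Cxcr6-negative gate. It was at 938, 851 and 1152 CPM in the knockout libraries and 1171 and 868 in the control libraries in the Foxp3 gate, against 1454, 1202 and 1434 (knockout) and 1556 and 1039 (control) in the Cxcr6-negative gate. Each library was lower in its Foxp3 gate, although the ranges overlap across libraries (log2 -0.52 ± 0.10, edgeR adjusted p = 0.000455). The Cxcr6-positive gate was lower than the Cxcr6-negative gate by -0.31 ± 0.10 (edgeR adjusted p = 0.0154), also in 5 of 5 libraries, but this did not pass without knockout replicate 1 (adjusted p = 0.0919).

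Itgal and Itgb2, which encode the paired chains of LFA1, were lower in the Foxp3 than in the Cxcr6-positive gate. Itgal was at 266, 326 and 268 CPM in the knockout libraries and 220 in each control library in the Foxp3 gate, against 383, 479 and 325 (knockout) and 361 and 339 (control) in the Cxcr6-positive gate. Itgb2 was at 208, 221 and 189 CPM in the knockout libraries and 178 and 170 in the control libraries in the Foxp3 gate, against 254, 299.9 and 241 (knockout) and 268 and 253 (control) in the Cxcr6-positive gate. Both chains were lower in the Foxp3 gate of 5 of 5 libraries (Itgal log2 -0.59 ± 0.08, Itgb2 -0.49 ± 0.06, edgeR adjusted p = 1.25e-05 and 1.06e-05). Both were also higher in the Cxcr6-positive than in the Cxcr6-negative gate (0.43 ± 0.08 and 0.40 ± 0.06, edgeR adjusted p = 0.000199 and 5.72e-05). Over the 20 sums of 4 gates in 5 libraries the log2 levels of Itgal and Itgb2 had a Pearson r of 0.96, a description, since the sums share libraries.

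Itgav, the shared αV chain, was higher in the Foxp3 gate, at 198, 146 and 144 CPM in the knockout libraries and 169 and 142 in the control libraries. The Cxcr6-positive gate had 96.6 to 115 CPM over the 5 libraries and the Cxcr6-negative gate 78.4 to 115, so neither overlapped with the Foxp3 gate. The log2 differences were 0.55 ± 0.07 and 0.58 ± 0.07 (edgeR adjusted p = 3.64e-06 and 2.57e-06), in 5 of 5 libraries each. CD8-only cells were below the Foxp3 gate (-0.999 ± 0.13, edgeR adjusted p = 2.17e-05) in 5 of 5 libraries.

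Its partner Itgb8 had a steeper difference. Itgb8 was at 43.0, 26.5 and 18.1 CPM in the knockout libraries and 48.8 and 47.1 in the control libraries in the Foxp3 gate, against 1.30 to 3.46 over the 5 libraries in the Cxcr6-positive gate and 4.46 to 7.53 in the Cxcr6-negative gate. It was 16.0-fold higher in the Foxp3 than in the Cxcr6-positive gate (log2 4.00 ± 0.25, edgeR adjusted p = 9.04e-10) and 6.13-fold higher than in the Cxcr6-negative gate (2.62 ± 0.24, adjusted p = 1.53e-07). The Cxcr6-positive gate was below the Cxcr6-negative gate (-1.38 ± 0.27, edgeR adjusted p = 0.0005). Itgb8 was also present in tubule-like cells, at 44.8 to 269.5 CPM, while 5 tubule markers summed to 0.96 to 8.73 CPM in the Foxp3 gate of the knockout libraries and 2.71 and 25.4 in the control libraries.

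Itgb1, the β chain shared by α1, α2, α4 and αV, was lower in the Foxp3 gate. It was at 751, 819 and 1072 CPM in the knockout libraries and 900.4 and 567 in the control libraries in the Foxp3 gate, against 1008, 1112 and 1247 (knockout) and 1739 and 1069 (control) in the Cxcr6-positive gate. Each of the 5 libraries was lower in its own Foxp3 gate (log2 -0.63 ± 0.09, edgeR adjusted p = 1.91e-05). The Foxp3 gate was likewise below the Cxcr6-negative gate (-0.44 ± 0.09, edgeR adjusted p = 0.000669) in 5 of 5 libraries.

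Itgb7, the partner of αE and α4, varied less: 337, 281 and 273 CPM in the knockout libraries and 297 and 283 in the control libraries in the Foxp3 gate, against 280.3, 262 and 221 (knockout) and 229 and 249 (control) in the Cxcr6-positive gate. Its log2 difference of 0.23 ± 0.06 (edgeR adjusted p = 0.0067) compares with 3.50 for Itgae, and each was higher in 5 of 5 libraries. Against the Cxcr6-negative gate Itgb7 was higher by 0.34 ± 0.06 (edgeR adjusted p = 0.000173).

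Itgb3, a β chain best known from platelets and phagocytes, did not pass in any contrast among the 3 CD4 gates (log2 -0.21 to 0.11). It was at 61.3, 71.8 and 82.5 CPM in the knockout libraries and 46.6 and 64.7 in the control libraries in the Foxp3 gate. CD8-only cells had 20.7, 48.1 and 21.6 CPM in the knockout libraries and 5.98 and 44.4 in the control libraries, from 2 to 15 UMIs. The CD8 gate was lower than the Cxcr6-positive gate by -1.56 ± 0.28 (edgeR adjusted p = 0.00135), and by -0.81 without control replicate 1 (adjusted p = 0.187). Summed platelet markers (Pf4, Ppbp, Gp9 and Gp1ba, the last at 0) were at 12.1 to 38.1 CPM in the Foxp3 gate of the knockout libraries and 3.15 and 17.4 in the control libraries; their part in the Itgb3 values was not tested.

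**Figure D1:**
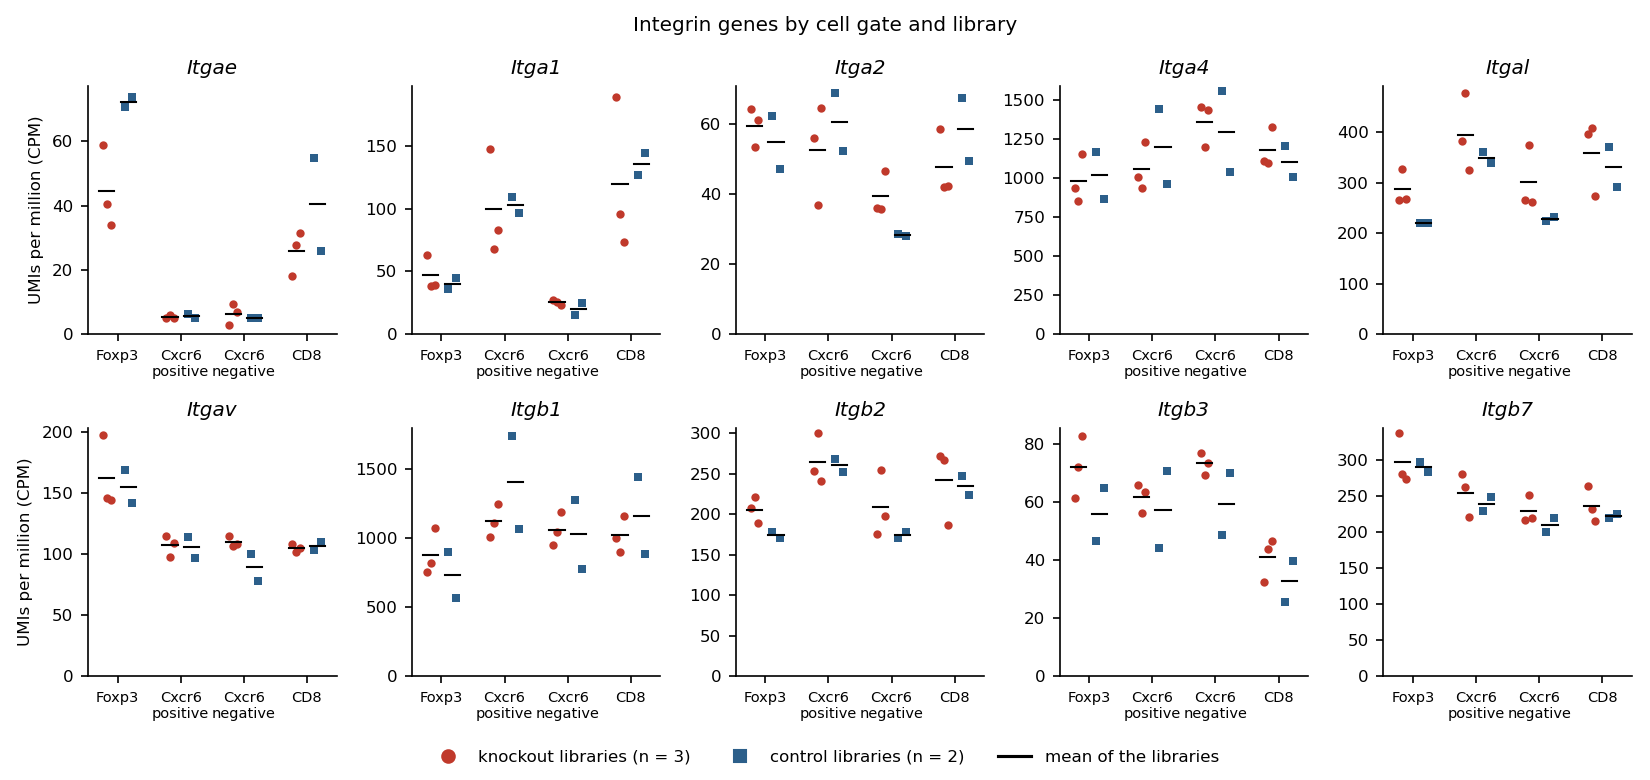
Level of each of the 10 integrin chains (CPM, axes from 0) in 4 gates, with 1 point per library, knockout (n = 3) left of control (n = 2), and lines at the means. Itgae stood at 33.8 to 73.7 CPM in the Foxp3 gate and under 10 CPM in both Cxcr6-split gates, and Itga1 at 67.8 to 148 CPM in the Cxcr6-positive gate.

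Counted over the 10 chains, 7 passed between the Foxp3 and Cxcr6-positive gates (3 higher, 4 lower), where 21.5% of all tested genes passed (12.7% higher, 8.8% lower). Between the Foxp3 and Cxcr6-negative gates 7 passed (5 higher, 2 lower; 32.2% of all genes, 18.4% higher and 13.9% lower), and between the Cxcr6-positive and Cxcr6-negative gates 5 passed (4 higher, 1 lower; 38.6%, 21% higher and 17.6% lower). For the CD8 gate 2 passed against the Cxcr6-positive gate (1 higher, 1 lower; 7.16% of all genes, 3.37% higher and 3.79% lower). Against the Cxcr6-negative gate 7 passed (5 higher, 2 lower; 15%, 6.9% higher and 8.14% lower), and 7 against the Foxp3 gate (4 higher, 3 lower; 15.5%, 6.46% higher and 9.05% lower). The CD8-against-Cxcr6-negative calls were higher for Itgae, Itga1, Itga2, Itgb2 (0.46) and Itgal (0.34) and lower for Itgb3 (-1.76) and Itgav (-0.42). The CD8-against-Foxp3 calls were higher for Itga1, Itgb2 (0.55), Itgal (0.50) and Itgb1 (0.38) and lower for Itgb3 (-1.66), Itgav and Itgb7 (-0.45). Knockout library 3 gave only 15 CD8-only cells and control library 1 gave 93 of the 217, so the CD8 contrasts lean on that control library: without it, 0 of the 10 chains passed against the Cxcr6-positive gate and 3 against the Cxcr6-negative gate, where Itgae, Itga2, Itgal (0.19) and Itgav (-0.13) lost the call. Against the Foxp3 gate Itgal (0.35), Itgb1 (0.37) and Itgb3 (-0.92) lost it without that library, and Itgb1 also without control replicate 2 (0.28) or knockout replicate 1 (0.33). With knockout replicate 1 left out 4 passed against the Cxcr6-negative gate.

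**Figure D2:**
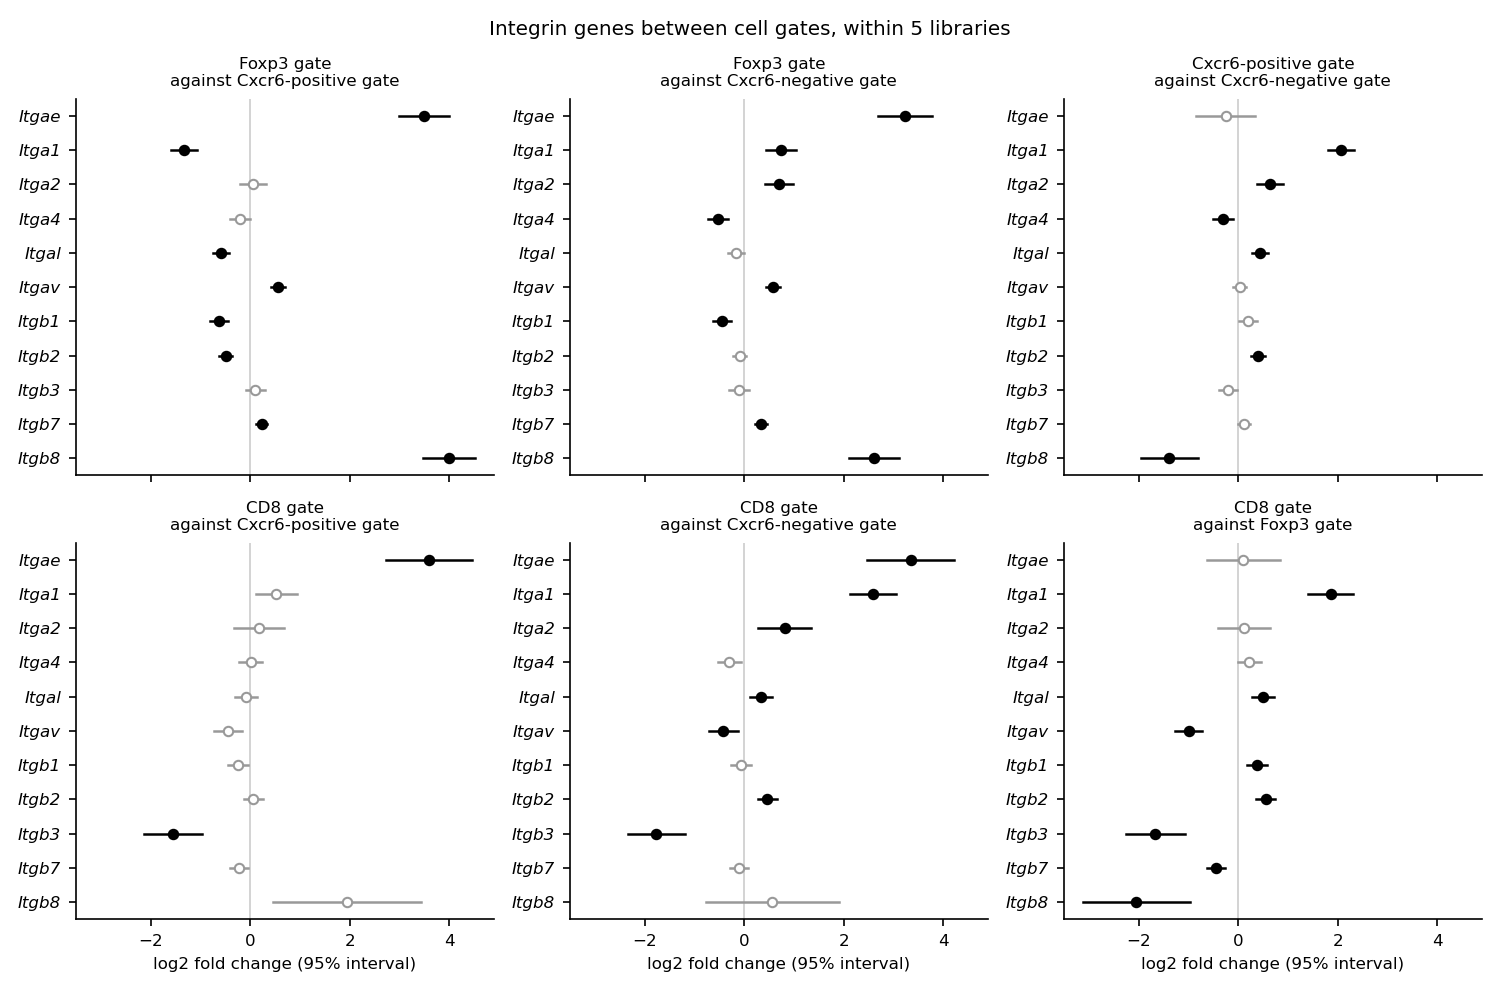
Fitted log2 fold change between gates with 95% intervals for the 10 chains and Itgb8, the first-named gate over the second. Filled black symbols passed an adjusted p of 0.05 (edgeR) and open grey ones did not; Itgae and Itgb8 lie at 3.50 and 4.00 in the Foxp3 gate against the Cxcr6-positive gate, and Itga1 at 2.07 in the Cxcr6-positive gate against the Cxcr6-negative gate.

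Shares of cells with a UMI gave the same pattern for Itgae after depth was set equal. After thinning to 2000 UMIs and gating again, Itgae was seen in 12.7% of Foxp3-gate cells (167 of 1314, exact 95% interval 10.96 to 14.6), 0.77% of Cxcr6-positive and 1.15% of Cxcr6-negative cells. Macrophage-like cells had 0.61% (interval 0.07 to 2.20) and B-like cells 1.90% (0.39 to 5.45), and both Foxp3-negative CD4 shares lay within these wide intervals. Whether macrophage-like and B-like cells lack Itgae was not tested, so the Foxp3-negative CD4 shares are not shown to be background. The unthinned shares were 23.5%, 2.90% and 1.75%. These intervals cover counting error only, and B-like, macrophage-like and tubule-like cells were defined by 2 markers each and no Cd3e.

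Itgb8 was seen in 7.38% of thinned Foxp3-gate cells (interval 6.03 to 8.93), against 0.30% and 0.95% in the Cxcr6-positive and Cxcr6-negative gates and 0.61% in macrophage-like cells. Itga1 was seen in 16.4% of Cxcr6-positive cells (interval 15.5 to 17.4) and 19.6% of CD8-gate cells, against 4.79% of Foxp3-gate and 6.09% of Cxcr6-negative cells. B-like cells had 5.70% and macrophage-like cells 7.36% with Itga1, so the thinned Foxp3 and Cxcr6-negative shares were near those of these cells. Whether these cells lack Itga1 was not tested, so their shares set no background. Unthinned, at unequal depth, Foxp3-gate shares of Itga1 were 27.0%, 16.1% and 19.6% (knockout) and 17.5% and 12.8% (control). Macrophage-like cells then had 10.7%, 12.8% and 17.8% (knockout) and 2.38% and 11% (control). Itgb3, at 11.04% to 12.9% in the CD4 gates, was close to the 10.4% of macrophage-like cells. Itga4 was seen in 65.3% of thinned Foxp3-gate and 75.6% of thinned Cxcr6-positive cells, against 62.9% of macrophage-like and 79.7% of B-like cells, so it is not particular to T cells. Itgb1 was seen in 54.5% and 79.6% of the same gates, against 66.3% of macrophage-like and 46.8% of B-like cells.

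**Figure D3:**
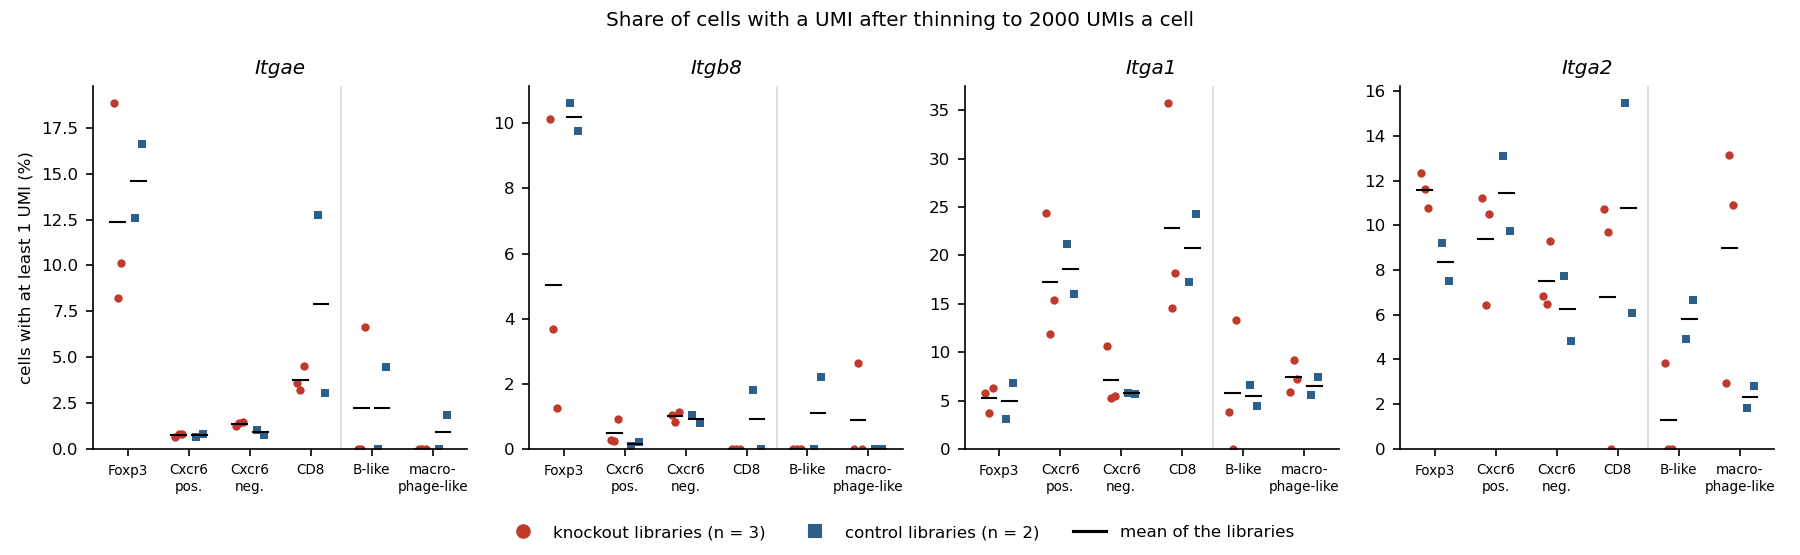
Percent of cells with at least 1 UMI of Itgae, Itgb8, Itga1 and Itga2 after thinning every cell to 2000 UMIs, per library, in the 4 gates and, right of the grey line, in B-like and macrophage-like cells. Lines are means of the libraries; over all libraries Itgae is at 12.7% in the Foxp3 gate and 0.77% in the Cxcr6-positive gate.

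Chains of 1 receptor were also compared within cells at 2000 UMIs. In the Foxp3 gate Itgb7 was seen in 73.1%, 41.4% and 68.8% of Itgae-positive cells in the knockout libraries and 55.6% and 52.9% in the control libraries, against 43.8%, 51.2% and 43.0% (knockout) and 41.2% and 43.4% (control) of Itgae-negative cells. Itgb7 was thus more often seen beside Itgae in 4 of 5 libraries, from only 16 to 51 Itgae-positive cells each. For α4, Itgb7 was less often seen in Itga4-positive than in Itga4-negative Foxp3-gate cells of all 5 libraries (46.3%, 48.4% and 42.1% against 53.6%, 53.8% and 54.5% in the knockout libraries, 41.5% and 42.0% against 46.7% and 49.6% in the control libraries). Thinning makes UMIs of 1 cell compete for a fixed total, and no test was made on cells.

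The genotype comparison asks whether the chains differ in Tregs when Il1rl1 is targeted in Foxp3-expressing cells. None of the 10 chains passed in the Foxp3 gate, nor did any of the 11519 genes tested (0% called by edgeR; 752 genes, 6.53%, at an unadjusted p under 0.05; DESeq2 called 51 genes and none of the 10). The lowest p-value among the chains was that of Itgae, with a mean of 44.4 ± 13.1 CPM in the knockout libraries (SD, n = 3) and 72.2 ± 2.1 in the control libraries (SD, n = 2). All 3 knockout values lay below both control values, as 22.2% of all tested genes had groups that did not overlap. The log2 fold change was -0.73 ± 0.20 (interval -1.18 to -0.27, unadjusted p = 0.00611, edgeR adjusted p = 0.526), with a range of -0.98 to -0.42 over 14 alternatives, the smallest size in thinned cells; it passed only with no filter on low counts. The thinned share of Itgae-positive cells was 12.4% ± 5.7 in the knockout libraries (SD, n = 3) and 14.6% ± 2.9 in the control libraries (SD, n = 2), with an exact two-sided permutation p of 0.6, where 0.2 is the smallest that 3 and 2 libraries allow.

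Other values moved with Itgae in this gate. Foxp3 itself was at 233, 207 and 199 CPM in the knockout libraries and 263 and 333 in the control libraries, with no overlap, and the macrophage list was higher in every knockout library, as given above. Foxp3 defined this gate by at least 1 UMI a cell, so its level there has a floor set by cell depth. Its values are therefore no independent measure of the genotypes. With cells holding over 0.5% of non-T marker UMIs left out, the Itgae difference was -0.59; the part of Foxp3 level in it was not tested. Itgb8 showed a like difference, 18.1 to 43.0 CPM in the knockout libraries and 47.1 and 48.8 in the control libraries (log2 -0.74 ± 0.28, unadjusted p = 0.0295, edgeR adjusted p = 0.705). Itgal leaned the other way, with all 3 knockout values (266 to 326 CPM) above both control values (220 each; log2 0.35 ± 0.12, unadjusted p = 0.0223, edgeR adjusted p = 0.682). Itgb2 did not overlap either (0.20 ± 0.11, edgeR adjusted p = 0.861), and for the other chains the intervals all held 0, from Itga4 at -0.10 (-0.48 to 0.29) to Itgb3 at 0.35 (-0.04 to 0.74).

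In the other gates the 10 chains gave no call either, from 13400, 12430 and 9024 genes tested in the Cxcr6-positive, Cxcr6-negative and CD8 gates (0% called by edgeR in each; 504, 591 and 330 genes, 3.76%, 4.75% and 3.66%, at an unadjusted p under 0.05; DESeq2 called 33, 44 and 3). Itga2 in the Cxcr6-negative gate had knockout values of 35.8 to 46.5 CPM, all above the control values of 28.0 and 28.6 (18.7% of all genes there did not overlap) (log2 0.43 ± 0.15, unadjusted p = 0.0224, edgeR adjusted p = 0.999). Itgae in the CD8 gate was at 18.0, 27.8 and 31.4 CPM in the knockout libraries and 54.8 and 25.9 in the control libraries (log2 -0.84 ± 0.31, unadjusted p = 0.0174, edgeR adjusted p of 1), at -0.04 without control replicate 1 and at -1.13, past the threshold, without control replicate 2 (adjusted p = 0.0359). Itgb8 in the Cxcr6-positive gate was low in both groups, 2.31 to 3.46 CPM in the knockout libraries and 1.30 and 1.90 in the control libraries, without overlap (as 16% of all genes; 0.78 ± 0.32, edgeR adjusted p of 1). In the Cxcr6-negative gate 10 of 10 chains had a positive log2 fold change, with a median of 0.26 against 0.01 over all tested genes, and in the Cxcr6-positive gate 3 of 10, with a median of -0.04 against 0.00. Only 1 of the 10 had an unadjusted p under 0.05 (edgeR) in the Cxcr6-negative gate. The chains come from the same 5 libraries and are not independent, and the share of all genes with a positive value was not counted.

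**Figure D4:**
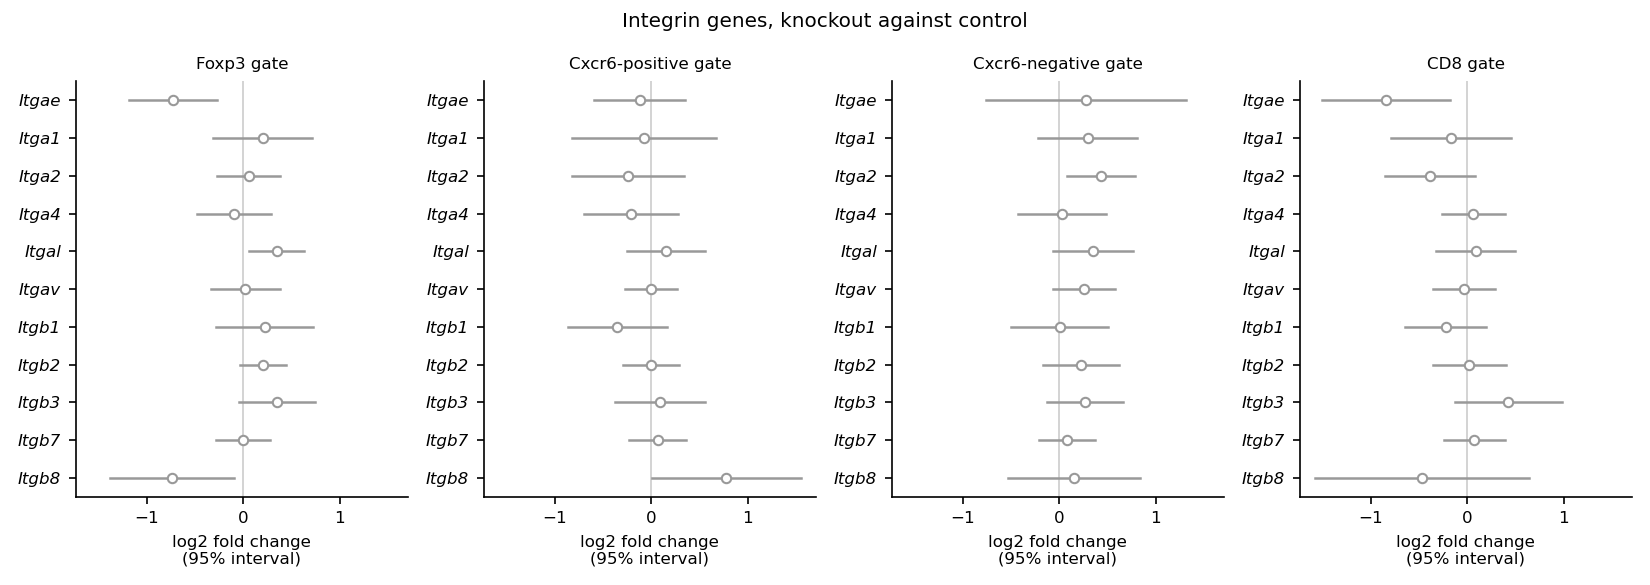
Fitted log2 fold change, knockout over control, with 95% intervals for the 10 chains and Itgb8 in each gate (edgeR; open grey symbols did not pass an adjusted p of 0.05, and none passed). In the Foxp3 gate Itgae lies at -0.73 and Itgb8 at -0.74, and the intervals of both leave out 0 before adjustment.

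A direct test asked whether the genotype difference differs between Tregs and Cxcr6-positive CD4 T cells of the same libraries. Itgb1 passed it, 1 of the 10 chains, where 6 of 13448 genes (0.0446%; 0.0223% in each direction) passed. The log2 difference of the Foxp3 gate from the Cxcr6-positive gate for Itgb1 was -0.42, -0.44 and -0.22 in the knockout libraries and -0.98 and -0.93 in the control libraries, so Itgb1 was lower in Tregs of every library and the gap was smaller in the knockout libraries. The difference in knockout effect was 0.59 ± 0.08 (interval 0.41 to 0.76, edgeR adjusted p = 0.0329), made of 0.22 in the Foxp3 gate and -0.35 in the Cxcr6-positive gate, neither of which passed alone. The value stayed between 0.52 and 0.67 over 12 alternatives, but 5 of the 12 kept the call. It was lost without control replicate 1 (0.56, adjusted p = 0.421), control replicate 2 (0.60, 0.0766) or knockout replicate 2 (0.63, 0.131) and with thinned cells (0.65, 0.127).

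The summed macrophage list was higher in every knockout library in the Foxp3 gate, but the groups overlapped in the Cxcr6-positive gate. The part of macrophage RNA in the Itgb1 result was not tested. C1qa, a macrophage complement gene, passed the same test with 0.55 ± 0.07 (edgeR adjusted p = 0.0317), and the summed macrophage list was at 696 to 1082 CPM in the Cxcr6-positive gate of the knockout libraries and 409 and 864 in the control libraries, beside the Foxp3-gate sums given above. Itgb1 in macrophage-like cells was at 623, 708 and 988 CPM in the knockout libraries and 645 and 538 in the control libraries. With cells over 0.5% of non-T marker UMIs left out, the Itgb1 difference was also 0.59, though its adjusted p was 0.0846. The other named genes that passed were Il1rl1 (-1.98), the chemokine gene Xcl1 (1.00) and the antibody segments Igkv14-126 and Ighg2c.

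The remaining chains did not pass this test. Itgae had -0.87 ± 0.22 (edgeR adjusted p = 0.301) and Itgb8 -1.59 ± 0.36 (adjusted p = 0.254; -2.07 and 0.0196 without knockout replicate 1). At an unadjusted p under 0.05 there were 6 of the 10 chains, against 6.02% of all genes; these chains come from the same 5 libraries and are not independent of each other. Against the Cxcr6-negative gate none of 12407 genes passed (edgeR; 789 genes, 6.36%, and 3 of the 10 chains at an unadjusted p under 0.05). Itgae had -1.07 ± 0.47 there (edgeR adjusted p = 0.778), and -1.64 without knockout replicate 1 (adjusted p = 0.00994).

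**Figure D5:**
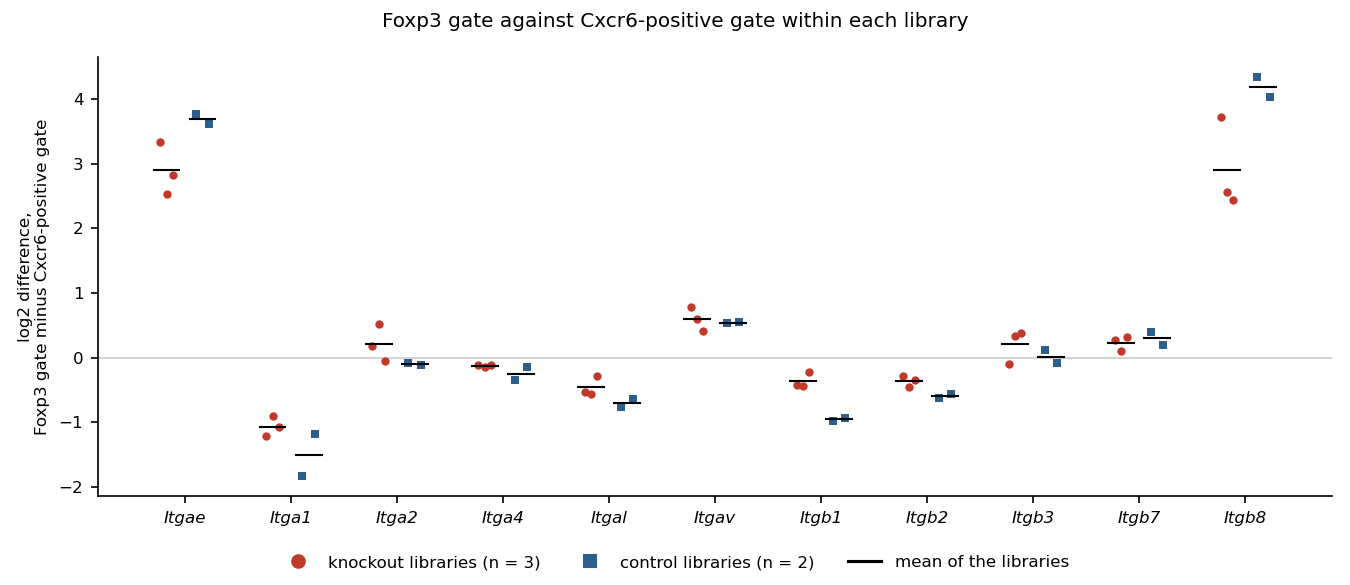
Log2 difference of the Foxp3 gate from the Cxcr6-positive gate within each library, from cells of 1 gate only, for the 10 chains and Itgb8; points are libraries, knockout (n = 3) left of control (n = 2), and lines are means. Itgb1 lies at -0.42, -0.44 and -0.22 in the knockout libraries and at -0.98 and -0.93 in the control libraries.

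Among 17 other integrin chains, 10 were testable between gates. In the Foxp3 gate 5 were higher than in the Cxcr6-positive gate and none lower, where 12.7% of all genes were higher and 8.8% lower: Itgb8, Itga5 (0.91), Itga6 (0.79), Itga3 (0.76) and Itgam (0.65). Itga5 encodes the fibronectin receptor α chain, Itga3 and Itga6 laminin-binding chains, and Itgam a chain of macrophages and other myeloid cells. The median of all 10 testable chains was 0.70 against -0.01 over all genes. Between the Cxcr6-positive and Cxcr6-negative gates 3 were lower, Itga7 (-1.69), Itgb8 and Itga6 (-0.93), and none higher (17.6% and 21% of all genes).

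Of 31 tested genes for integrin activation and its adaptors, 5 were higher and 5 lower in the Foxp3 than in the Cxcr6-positive gate, with a median of -0.05. Over all genes 12.7% were higher and 8.8% lower there, so these counts do not set the list apart. The tetraspanins Cd81 (1.18) and Tspan32 (0.71) were higher, and Rassf5, the Rap1 effector RAPL (-0.28), the adaptor genes Zyx (-0.33) and Pxn (-0.28) and the talin gene Tln1 (-0.15) were lower. Between the Cxcr6-positive and Cxcr6-negative gates 12 were higher and 6 lower (21% and 17.6% of all genes). Zyx (0.58), Tln1 (0.30), Rap1b (0.23) and the kindlin gene Fermt3 (0.22) were higher, and the Rap1 exchange factor Rasgrp2 (-0.92) and the focal adhesion kinase gene Ptk2 (-1.27) were lower. In CD8-only cells against the Foxp3 gate 4 were higher, led by Zyx (1.01) and Pxn (0.63), and 5 lower, led by Tspan32 (-1.98) and Cd81 (-2.67), where 6.46% of all genes were higher and 9.05% lower.

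Residency and TGF-β response genes were counted without Cxcr6, which defined the gates. In the Foxp3 gate against the Cxcr6-positive gate 5 of 16 were higher (12.7% of all genes), among them the TGF-β receptor gene Tgfbr1 (0.40), its feedback inhibitor Smad7 (0.32) and Ahr (0.70), and 6 were lower (8.8% of all genes), among them Zfp683 (-1.52), Runx3 (-0.45) and Tgfbr2 (-0.33). Zfp683 encodes Hobit and Runx3 a factor of tissue-resident cells. In the Cxcr6-positive against the Cxcr6-negative gate 7 of 16 were higher and 3 lower (21% and 17.6% of all genes). Zfp683 (1.25), Runx3 (0.32) and Rgs1 (0.85) were among those higher, the direction of Itga1, and the 3 lower genes went the other way. In CD8-only cells against the Foxp3 gate 4 of 16 were higher, among them Runx3 (1.24) and the E-cadherin gene Cdh1 (2.43), and 5 were lower. Over all genes 6.46% were higher and 9.05% lower there, and the CD8 contrasts lean on control library 1, as given above.

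Egress genes, whose products lead T cells out of tissue or into lymph nodes, fell in 6 of 7 in the Cxcr6-positive against the Cxcr6-negative gate (median -1.17 against 0.01 over all genes, of which 17.6% were lower). The chemokine receptor gene Ccr7 (-2.36), the factor gene Klf2 (-1.54) and its target S1pr1 (-1.17) were among them. The Foxp3 gate was also lower than the Cxcr6-negative gate in 6 of 7, among them Ccr7 (-1.69) and Klf2 (-0.91) (13.9% of all genes were lower), and higher than the Cxcr6-positive gate in 5, among them Ccr7 (0.68) and Klf2 (0.63) (12.7% of all genes were higher). No gene of the 4 lists passed between genotypes in any gate.

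The genes whose levels followed Itgae most closely over the 20 sums, among 8238 with a mean of at least 10 CPM, were Snx9 (Pearson r 0.90), Cerk (0.89), Ikzf2 (0.89), Frmd5 (0.87) and Itgb8 (0.86). Ikzf2, which encodes the Treg factor Helios, averaged 1455 CPM in the Foxp3 gate and 173 in the Cxcr6-positive gate. For Itga1 they were H2-Q7 (0.92), Padi2 (0.90), Nedd4 (0.90), Ech1 (0.90) and Tmed5 (0.89). The sums come from 5 libraries and share their depth, so these are descriptions. Among the chains themselves Itgav followed Itgb7 (0.77) and Itgb8 (0.71), Itga4 followed Itgb1 (0.68), and Itga4 and Itgb7 ran opposite (-0.68).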

How the data were processed

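Each library was deposited as raw UMI counts per gene and cell; per the file headers, Cell Ranger 8.0.0 wrote them. Cell Ranger 8.0, Seurat 5.1.0 and the build mm10 are named in the submitters' processing notes. The authors' counts are 3' counts, so levels were not scaled by gene length. Cells with at least 500 genes and under 10% mitochondrial UMIs were kept, no doublet caller was run, and cells meeting the CD8 gate and another gate were left out of comparisons between gates.

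Counts were summed per gate and library and fitted with edgeR 4.0.16 (TMM, filterByExpr, quasi-likelihood F test, Benjamini-Hochberg over all tested genes, threshold 0.05) in R 4.3.3. Genotypes were compared within a gate, gates within libraries (library as a block), and genotype effects between 2 gates on the within-library design. Levels are CPM over a gate's UMIs, without TMM. Shares have exact Clopper-Pearson 95% intervals (scipy 1.17.1), after thinning to 2000 UMIs. The scripts were tested on simulated data. DESeq2 1.42.0, other scaling, no low-count filter, stricter cells, cells with at most 0.5% non-T marker UMIs ("T cells only"), leaving out the deepest 5% of cells, thinning, a replicate block and each library in turn were alternatives; 2 more, cells of 2 gates kept in both and cells of at least 5000 UMIs, were chosen after seeing the data.

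The genes and lists were chosen with earlier results of these data known. Besides the 10 chains and Itgb8, the text names from each list up to 6 passing genes per direction, lowest p first, or up to 2 where none passed; genes of like pattern are the 5 of highest r. One gene of the egress list is not reported here. Il1rl1, Xcl1, C1qa and the antibody segments were named after their values were seen. P-values between genotypes within a gate measure the spread between libraries, which may be technical. P-values between gates, and of the knockout effect between 2 gates, measure the spread that is left once each library's own level is taken out.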

Additional observations from a re-analysis of the deposited data

Results flagged for a closer look

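The difference of Itgb1 between genotypes was not the same in 2 gates in 1 test that most alternatives did not keep. The knockout effect in the Foxp3 gate exceeded that in the Cxcr6-positive gate by 0.59 on the log2 scale (edgeR, interval 0.41 to 0.76, adjusted p = 0.0329). Within libraries, the Foxp3 gate differed from the Cxcr6-positive gate by -0.42, -0.44 and -0.22 (knockout) and -0.98 and -0.93 (control). The call was kept in 5 of 12 alternatives and lost without control replicate 1 (0.56), control replicate 2 (0.60) or knockout replicate 2 (0.63) and with thinned cells (0.65). The macrophage gene C1qa passed the same test (0.55), and its part in the Itgb1 value was not tested.

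In CD8-only cells Itgb8 rested on 1, 1 and 0 UMIs in the knockout libraries and 18 and 1 in the control libraries. Its log2 difference from the Cxcr6-negative gate, with a pseudocount, was -0.73, -0.68 and -2.45 in the knockout libraries (mean -1.29) and 0.92 and 0.22 in the control libraries, and the difference between the groups was not tested. The signs are opposite in the groups, but with at most 1 UMI in each knockout library they depend on the pseudocount and show no direction. In the whole CD8 gate 2.86%, 2.99% and 9.52% of cells had an Itgb8 UMI in the knockout libraries and 7.29% and 5.56% in the control libraries, in every library above the 1.34%, 1.57% and 1.38% (knockout) and 2.69% and 1.04% (control) of its Cxcr6-negative gate; CD8-gate cells are deeper and many also meet another gate.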

How the results depend on the processing

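Leaving out 1 library at a time changed the number of chains called to 0 to 1 between genotypes in the CD8 gate (1 without control replicate 2), 0 to 3 for the CD8 gate against the Cxcr6-positive gate, 3 to 8 against the Cxcr6-negative gate, and 0 to 1 for the difference of the knockout effect between the Foxp3 gate and either Cxcr6-split gate. With no filter on low counts 1 chain was called between genotypes in the Foxp3 gate, 5 for CD8 against Cxcr6-positive cells, 3 in the difference between Foxp3 and Cxcr6-positive gates and 1 in that between Foxp3 and Cxcr6-negative gates; over all genes the genotype counts then were 452, 199, 378 and 120 in the Foxp3, Cxcr6-positive, Cxcr6-negative and CD8 gates, against 0. DESeq2 called 51, 33, 44 and 3. Thinning gave 1 call for CD8 against Cxcr6-positive cells and 4 against Cxcr6-negative cells. T cells only, leaving out the deepest 5% of cells, thinning and cells of at least 5000 UMIs each gave 0 calls in the difference between Foxp3 and Cxcr6-positive gates.

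Genotype differences that turned sign, none of them called, were, with the range over left-out libraries, Itgb1 in the Foxp3 gate (-0.071 to 0.60, lowest without control replicate 2), Itga4 (-0.47 to 0.11) and Itgb1 (-0.66 to 0.048) in the Cxcr6-positive gate, Itga1 in the Cxcr6-negative gate (-0.025 to 0.67) and Itgb1 in the CD8 gate (-0.53 to 0.19), the last 4 turning without control replicate 1. Thinning turned Itga1 (-0.50) and Itgb3 (0.22) between Foxp3 and Cxcr6-negative gates, Itgb8 between CD8 and Cxcr6-positive gates (-4.93, SE 4.38), and Itga4 (0.059), Itgav (0.12) and Itga2 (0.24) in the difference between Foxp3 and Cxcr6-negative gates, where Itga4 was also 0.0051 with cells of at least 5000 UMIs. The cause was not tested. Of single-gene values, 1618 kept direction and side of the threshold, 41 lost a call, 33 gained one and 12 reversed direction. A further 26 were classed as moved, apart from these.

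Nothing in the labels ties libraries of the same number, and only 2 numbers are shared. Deviations of same-numbered libraries correlated at 0.08 and -0.08 in the Foxp3, 0.17 and -0.05 in the Cxcr6-positive, 0.14 and -0.14 in the Cxcr6-negative and -0.11 and -0.07 in the CD8 gate. With 2 control libraries their deviations mirror each other, so this check says little about pairing. With the replicate block 0 chains were called between genotypes in every gate (Itgae -0.59 in the Foxp3 gate, edgeR adjusted p = 0.768). Few CD8-only cells, 2 control libraries and 1 library of far greater depth limit the precision.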

Other observations

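Cells in no gate, in which no Cd4 or Foxp3 molecule was counted, had Itga1 at 148, 81.2 and 82.7 CPM in the knockout libraries and 129 and 66.2 in the control libraries, beside 148, 67.8 and 83.3 (knockout) and 109.6 and 96.7 (control) in the Cxcr6-positive gate. Itgae in these cells was at 7.43 to 13.5 CPM over the 5 libraries.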
